A study of Mus musculus with 4 samples.

Results

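The collagen gene family was examined in single-cell RNA-seq libraries of the mouse dorsal root ganglion (DRG), the ganglion that holds the cell bodies of sensory neurons. Members were all genes in the files whose symbol is Col, a number, a lower-case a and a number, which gave 44 of 33456 genes. The ganglia came from female C57BL/6 mice aged 8 to 12 weeks, and the study states that each batch held cells pooled from several mice. The 2 control libraries were made from ganglia of uninjured mice and the 2 injury libraries from ganglia taken 3 days after a crush of the sciatic nerve. The labels name the L4 ganglion, the study's methods name L4 and L5, and the design text calls the 2 libraries of a condition biological replicates. Ganglia were dissociated with papain and collagenase, live cells were sorted, and RNA was captured at its 3′ end in droplets (10x Genomics), so that counts are of tagged molecules (unique molecular identifiers, UMIs), assigned to cells by barcode.

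Collagens are secreted proteins of 3 chains wound into a triple helix. Fibril-forming collagens give tissue its tensile strength, type IV collagens form the network of basement membranes around vessels, glia and nerve fibres, type VI collagens form beaded filaments near cells, and FACIT collagens (fibril-associated, with interrupted helices) decorate the surface of fibrils. Multiplexins sit where basement membranes meet the matrix, and transmembrane collagens stay anchored in the cell surface. In peripheral nerve and ganglion the connective tissue layers hold collagen fibrils, while Schwann cells and satellite glial cells (SGC), which wrap axons and neuron cell bodies, are covered by a basement membrane.

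RefSeq held 38 promoter windows for 35 of the 44 genes, each from 250 bases before to 50 after a transcription start (GRCm38.p6). Windows are shown for genes on which the results below turn: Col1a2 and Col3a1 of the fibroblasts, Col1a2 also of the glia, the head-to-head pair Col4a1 and Col4a2, Col9a2 of the endoneurial fibroblast-like cells and Col13a1 of the endothelial-like cells. They are written 5′ to 3′ on the gene's strand, and capitals mark matches on either strand to TATAAA (the TATA box), to CCAAT (the site of the same name) and to GGGCGG (the GC box).
Col1a2 (chr6:4505368-4505667, plus strand): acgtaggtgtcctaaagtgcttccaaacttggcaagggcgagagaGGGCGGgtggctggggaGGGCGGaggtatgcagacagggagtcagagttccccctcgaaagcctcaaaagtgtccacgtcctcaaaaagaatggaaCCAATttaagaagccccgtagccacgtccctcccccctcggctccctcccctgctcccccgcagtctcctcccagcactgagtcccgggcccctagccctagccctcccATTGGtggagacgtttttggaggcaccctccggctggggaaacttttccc
Col3a1 (chr1:45311288-45311587, plus strand): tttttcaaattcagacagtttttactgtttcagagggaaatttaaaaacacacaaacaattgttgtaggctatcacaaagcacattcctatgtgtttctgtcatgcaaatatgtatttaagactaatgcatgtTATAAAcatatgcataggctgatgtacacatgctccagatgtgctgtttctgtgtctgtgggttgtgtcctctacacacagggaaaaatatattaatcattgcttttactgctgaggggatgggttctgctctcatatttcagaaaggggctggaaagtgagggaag
Col4a1 (chr8:11312777-11313076, minus strand): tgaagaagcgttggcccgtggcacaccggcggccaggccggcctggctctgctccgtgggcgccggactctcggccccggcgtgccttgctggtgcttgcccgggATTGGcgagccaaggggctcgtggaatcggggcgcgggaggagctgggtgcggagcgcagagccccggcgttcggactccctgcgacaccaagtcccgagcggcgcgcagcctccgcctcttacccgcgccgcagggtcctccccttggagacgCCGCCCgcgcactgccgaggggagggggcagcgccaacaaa
Col4a2 (chr8:11312555-11312854, plus strand): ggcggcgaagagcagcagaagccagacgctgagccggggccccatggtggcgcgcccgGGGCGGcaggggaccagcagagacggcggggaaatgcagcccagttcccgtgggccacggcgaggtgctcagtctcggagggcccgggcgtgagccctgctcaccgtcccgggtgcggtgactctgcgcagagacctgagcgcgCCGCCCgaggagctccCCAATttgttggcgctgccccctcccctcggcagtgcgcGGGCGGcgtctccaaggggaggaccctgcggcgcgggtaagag
Col9a2 (chr4:121039316-121039615, plus strand): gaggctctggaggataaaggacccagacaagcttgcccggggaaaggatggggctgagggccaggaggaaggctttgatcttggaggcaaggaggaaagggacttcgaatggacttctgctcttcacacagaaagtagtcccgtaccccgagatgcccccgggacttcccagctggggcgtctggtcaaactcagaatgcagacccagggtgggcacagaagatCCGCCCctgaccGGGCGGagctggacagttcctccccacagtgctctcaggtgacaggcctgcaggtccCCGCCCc
Col13a1 (chr10:61979059-61979358, minus strand): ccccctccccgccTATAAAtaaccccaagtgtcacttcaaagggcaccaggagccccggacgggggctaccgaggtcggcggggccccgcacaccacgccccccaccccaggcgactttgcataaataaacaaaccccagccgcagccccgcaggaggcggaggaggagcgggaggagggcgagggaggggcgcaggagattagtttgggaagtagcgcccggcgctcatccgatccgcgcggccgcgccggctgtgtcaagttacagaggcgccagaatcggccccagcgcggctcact
TATAAA was present in 5 of the 38 collagen windows (13.2%) and in 13.6% of all 32851 windows, and CCAAT in 13 (34.2%) and 37.4%. GGGCGG was present in 23 collagen windows (60.5%) and in 35.7% of all windows. The Col4a1 and Col4a2 windows share 78 bases, read from opposite strands, and the Col6a2 windows overlap each other. These windows are therefore not independent in the counts. A match is only a stretch of letters, and no binding was measured.

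Of 6975 barcodes, 6095 were kept after limits on UMIs, genes and mitochondrial share, with 4293865 to 9139674 UMIs per library. No cell names are used here, so 4901 cells were assigned to a type by their markers, none of which is a collagen, and the types are written as fibroblast-like and so on. A cell needed at least 3 markers of 1 type, and cells with many markers of a second type were left out. Fibroblast-like cells were further split into endoneurial-like, mesenchymal-like and adventitial-like groups by the same rule, which left 292 of the 1159 in no group. The libraries numbered 1 and 2 differed in their cells in both conditions: there were 73 and 3 pericyte-like cells in control and 95 and 4 after injury, and 26 and 104 mesenchymal-like cells in control and 43 and 51 after injury, libraries 1 and 2 in that order. Pairs of libraries shared 1 to 6 barcode sequences. Values in CPM are a gene's UMIs scaled to the UMI total of the same type in the same library, given in the order library 1, library 2, and are given only where a library held at least 10 cells of the type. A 3′ UMI counts a molecule once whatever its length, so CPM was not divided by gene length.

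The filtered cells held 70848 collagen UMIs. The 3 most counted members, Col1a2, Col3a1 and Col1a1, the chains of the fibrils of types I and III, held 64.4% of them. The 11 fibril-forming members together held 70.4%, the 6 beaded filament members 8.66%, the 3 short-chain network members 6.31%, the 9 FACIT members 5.74%, the 2 multiplexins 3.60% and the 6 basement membrane members 3.25%. The 4 transmembrane members held 0.869%, the single anchoring fibril member 0.00847% and the other 2, Col26a1 and Col28a1, 1.17%. By UMI count, 24 members had at least 200 UMIs, 10 had from 20 to fewer than 200, 9 had 1 to 19 and Col10a1 had none in the filtered cells.

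Fibroblast-like cells carried 75.4% of the collagen UMIs, SGC-like cells 5.89%, endothelial-like cells 1.18%, and cells assigned to no type 13.2%. As a share of all UMIs in fibroblast-like cells, collagens made up 1.29% and 1.19% in control and 0.801% and 1.05% after injury. Neutrophil-like cells, a blood cell type, had a collagen share of 0.00467% ± 0.00209 (SD, n = 4), which gives the level in cells that should make little or no collagen. Between them lay SGC-like cells at 0.0832% ± 0.0123, Schwann-like cells at 0.112% ± 0.0397 and endothelial-like cells at 0.0439% ± 0.00693 (SD, n = 4 each). Macrophage-like cells held 0.0124% ± 0.00822. Every fibroblast-like library was above every library of these other types.

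**Figure D1:**
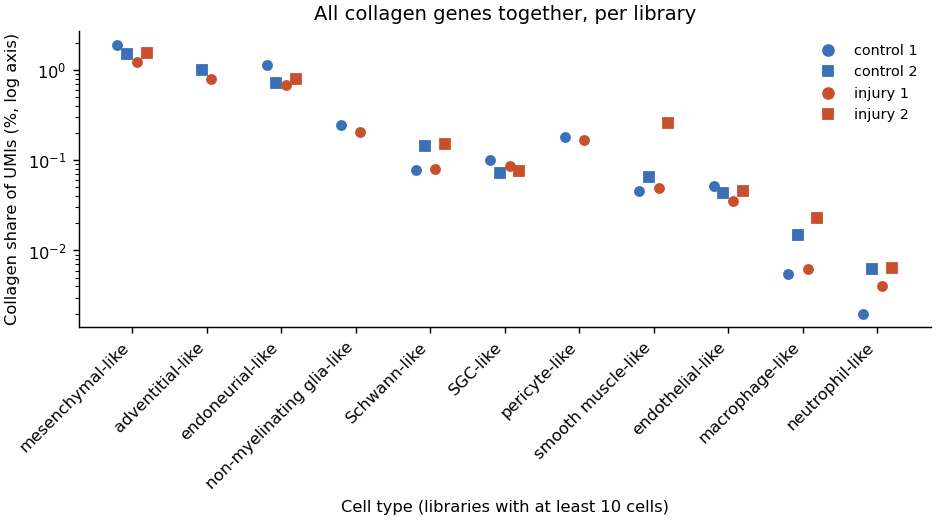
Share of UMIs that belong to collagen genes (percent, log axis) in marker-gated cell types, 1 point per library with at least 10 cells, control and injury libraries in different colours. Fibroblast-like cells are drawn as their mesenchymal-like, adventitial-like and endoneurial-like groups, which leave out 292 of the 1159 cells. Taken whole, fibroblast-like cells lie between 0.801% and 1.29% per library and are not drawn. Neutrophil-like libraries lie between 0.00200% and 0.00648%.

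To ask which collagens belonged to which cells, each of 7 types was compared with the mean of the other 6 by edgeR's quasi-likelihood test on UMIs summed per library and type, with library as a block. A call required a fold over 4 besides an adjusted p (Benjamini-Hochberg) under 0.05. Of the 44 members, 24 passed the filter on low counts and 20 were not tested. The filter kept genes well counted in 1 type alone, for example Col8a2 with 250 UMIs in fibroblast-like and 0 in SGC-like cells. The counts and medians below therefore partly restate how members entered the test. In fibroblast-like cells 18 of the 24 were called higher, while 10.8% of the 7253 genes tested were. For the median log2 difference, counts under 3 UMIs over the libraries were set to a floor of 3 UMIs in every type, including the type tested. The median was 4.52 over the collagens and 0.18 over all genes. The corresponding counts were 10 in SGC-like cells (9.50% of all genes), 8 in Schwann-like cells (8.29%), 6 in smooth muscle-like cells (10.0%) and 4 in endothelial-like cells (10.1%). Macrophage-like cells had 1 member called higher (10.9%), and neutrophil-like cells had none by edgeR (8.18%), with 7 collagens at an unadjusted p under 0.05 of which the 5 called were lower, and DESeq2 called none higher either. The floor medians over the collagens and over all genes were 0.83 and 0.11 in SGC-like, 0.90 and 0.19 in Schwann-like, -0.05 and 0.15 in smooth muscle-like, -2.45 and 0.23 in endothelial-like, -2.95 and -0.27 in macrophage-like and -0.62 and -0.85 in neutrophil-like cells. The floor raises a type's own low counts most where few cells were summed, as in the 110 neutrophil-like and 191 Schwann-like cells. Their floor medians are therefore not comparable with those of larger types.

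**Figure D2:**
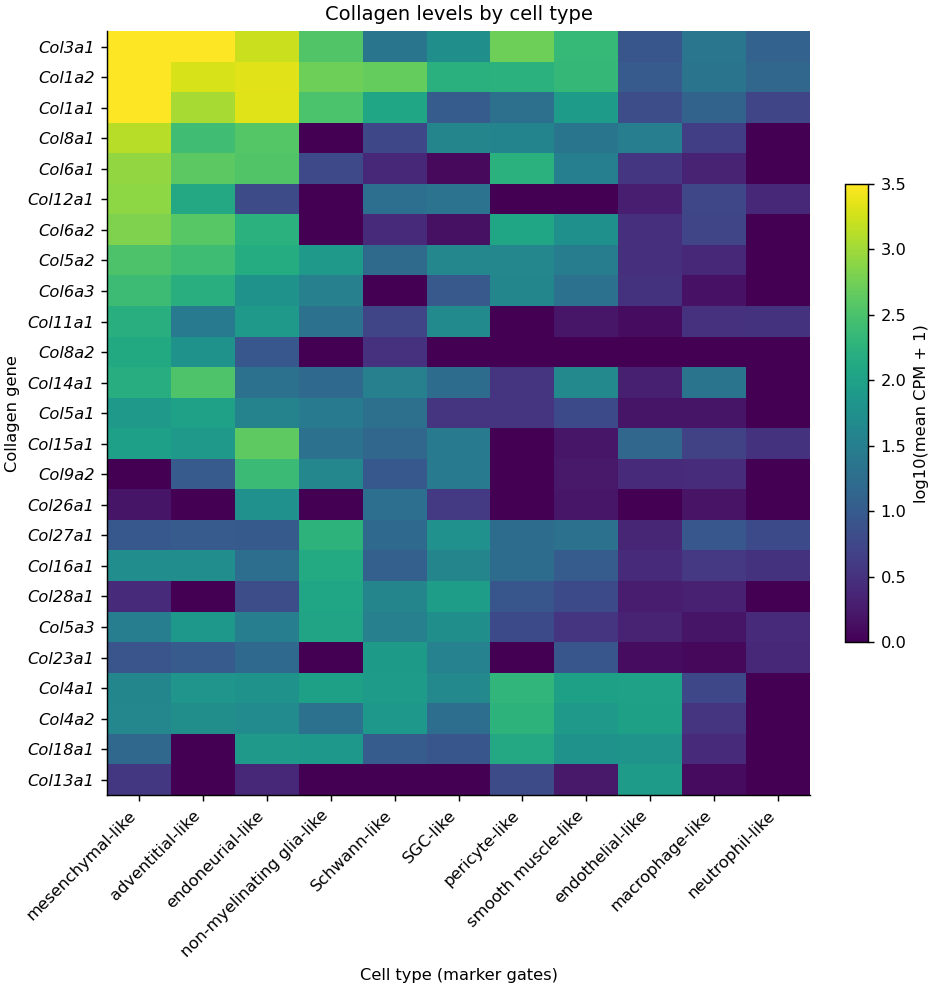
Mean level over libraries (log10 of mean CPM + 1, colour) of the collagens with at least 200 UMIs and Col13a1 (rows, ordered by the type where each is highest) in the marker-gated types (columns). The Col1a1, Col1a2, Col3a1 and Col6a1 rows are brightest in the 3 fibroblast types, the Col4a1 and Col4a2 rows in pericyte-like cells, Col13a1 in endothelial-like cells, and Col28a1 and Col23a1 in glia.

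Among the fibril-forming members, Col1a1 and Col1a2, the chains of type I collagen, and Col3a1, the only chain of type III, were highest in mesenchymal-like cells, the group of fibroblast-like cells assigned here by genes such as Slc47a1, Nog and Igf2. Col1a1 was at 4461 and 3056 CPM in control and 2500.0 and 3002 CPM after injury there. Col1a2 was at 3152 and 3669 CPM in control and 2820.4 and 3790.4 CPM after injury, and Col3a1 at 5472 and 3553 CPM in control and 2557 and 3701 CPM after injury. Control library 1 was the highest of the 4 for Col1a1 and for Col3a1. For Col1a1 both injury libraries were below both control libraries without passing the injury test (edgeR, log2 -0.45, SE 0.31, adjusted p = 1), and for Col3a1 the conditions overlapped. Endoneurial-like cells, the group of fibroblast-like cells assigned by genes such as Osr2 and Meox1, held 2228 ± 316 CPM (SD, n = 4) of Col1a2, and all 4 of their libraries were below the mesenchymal-like ones. Their Col1a1, at 2129.9 ± 792 CPM (SD, n = 4), overlapped the mesenchymal-like range.

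Type V and XI chains join type I fibrils and limit their width. Of these, Col5a2, Col11a1 and Col5a1 were highest in a group of fibroblast-like cells, and Col5a3 is given with the glia. Col5a2 reached 328 ± 68.2 CPM (SD, n = 4) in mesenchymal-like cells, with 382 and 358 CPM in control and 229 and 343 CPM after injury. Col11a1 reached 156 ± 32.8 CPM (SD, n = 4) in the same cells and 77.0 ± 6.87 CPM (SD, n = 4) in endoneurial-like cells, ranges that did not overlap. Col5a1 was highest in adventitial-like cells, a group of 33 cells with 1 of its own markers among its 10 leading genes, at 127 CPM in control library 2 and 70.4 CPM in injury library 1. That overlapped the mesenchymal-like level of 77.6 ± 34.5 CPM (SD, n = 4). The gene of the main chain of cartilage collagen, Col2a1, had 88 UMIs in all, of which 76 were in endoneurial-like cells, at 27.4 ± 13.1 CPM (SD, n = 4), and 0 in mesenchymal-like cells.

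The 3 main type VI chains and the type VIII chains, which form open networks, followed the mesenchymal-like cells. Col6a1 was at 884 and 905 CPM in control and 858 and 793 CPM after injury, Col6a2 at 688 and 751 CPM in control and 572 and 606 CPM after injury, and Col6a3 at 348 and 206 CPM in control and 160.2 and 279.8 CPM after injury. For Col6a1 and Col6a2 the libraries lay close together and above those of every other type. Col8a1 was at 1912 and 894 CPM in control and 1390.2 and 1119 CPM after injury, 3.51 times the mean of endoneurial-like cells. Col8a2, its partner in type VIII networks, was at 132 ± 25.5 CPM (SD, n = 4). The 3 minor type VI members Col6a4, Col6a5 and Col6a6 had 1, 24 and 3 UMIs.

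The direct comparison of the 610 endoneurial-like with the 224 mesenchymal-like cells, made with the library as a block and called at a fold over 2, could test 21 members. Of these, 4 were higher in endoneurial-like cells (9.62% of the 5323 genes tested were) and 9 were higher in mesenchymal-like cells (7.57%). The median log2 difference was -0.92 over the 21 and -0.00 over all genes. The filter on low counts kept genes well counted in either type alone, so these values partly restate how members entered the test. Col9a2, a chain of the FACIT type IX that is best known from cartilage, was at 351 and 296 CPM in control and 138 and 172 CPM after injury of endoneurial-like cells and at 0 in all 4 mesenchymal-like libraries. With 619 UMIs against none, and a floor of 3 UMIs over the 4 libraries, it was at least 75.0-fold higher in endoneurial-like cells. Its partner chains Col9a1 and Col9a3 had 7 and 19 UMIs in endoneurial-like cells. The mean of Col9a2 in endoneurial-like cells was 5.87 times that of the next type, non-myelinating glia-like cells, and all 4 libraries lay above those of every other type.

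Multiplexins went the same way as Col9a2. Col15a1, which is found at the outer face of basement membranes, was at 667 and 277 CPM in control and 401 and 350.2 CPM after injury in endoneurial-like cells and at 136 and 107 CPM in control and 34.3 and 93.3 CPM after injury in mesenchymal-like cells. The 2 types did not overlap (edgeR, log2 2.24, SE 0.22, adjusted p = 9.5e-08). Col18a1, whose last part is released as endostatin, was at 76.1 and 77.5 CPM in control and 74.0 and 69.3 CPM after injury in endoneurial-like cells, a narrow range, and at 14.1 ± 8.00 CPM (SD, n = 4) in mesenchymal-like cells (edgeR, log2 2.83, SE 0.35, adjusted p = 2.2e-06). Col26a1 was at 37.3 and 42.8 CPM in control and 76.3 and 78.2 CPM after injury in endoneurial-like cells and had 1 UMI in mesenchymal-like cells. The ratio of its pooled levels was 58.1 with a counting interval from 10.3 to 2310.3.

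Col12a1, the FACIT chain of tendon and fascia, showed the reverse. It was at 612 and 935 CPM in control and 566 and 1060.0 CPM after injury in mesenchymal-like cells and at 9.68 and 6.12 CPM in control and 0 and 5.33 CPM after injury in endoneurial-like cells, a pooled ratio of 176 (edgeR, log2 -6.99, SE 0.28, adjusted p = 2.1e-13). Of the 1201 Col12a1 UMIs in all fibroblast-like cells, 833 were in mesenchymal-like and 13 in endoneurial-like cells. Col14a1, the related FACIT chain, was lower in endoneurial-like cells by edgeR (log2 -2.69, SE 0.44, adjusted p = 7.0e-05), with 204 and 113 CPM in control and 183 and 93.3 CPM after injury in mesenchymal-like cells. It was highest in adventitial-like cells at 342 ± 46.9 CPM (SD, n = 2). The other members called higher in mesenchymal-like cells were Col8a2 (log2 -3.85), Col6a3 (-1.74), Col6a2 (-1.72), Col8a1 (-1.66), Col16a1 (-1.36), Col6a1 (-1.13) and Col3a1 (-1.06), given as endoneurial-like minus mesenchymal-like differences. Without control library 2, which held 104 of the 224 mesenchymal-like cells, Col3a1 (-0.91), Col6a1 (-0.99) and Col16a1 (-1.001) were no longer called.

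**Figure D3:**
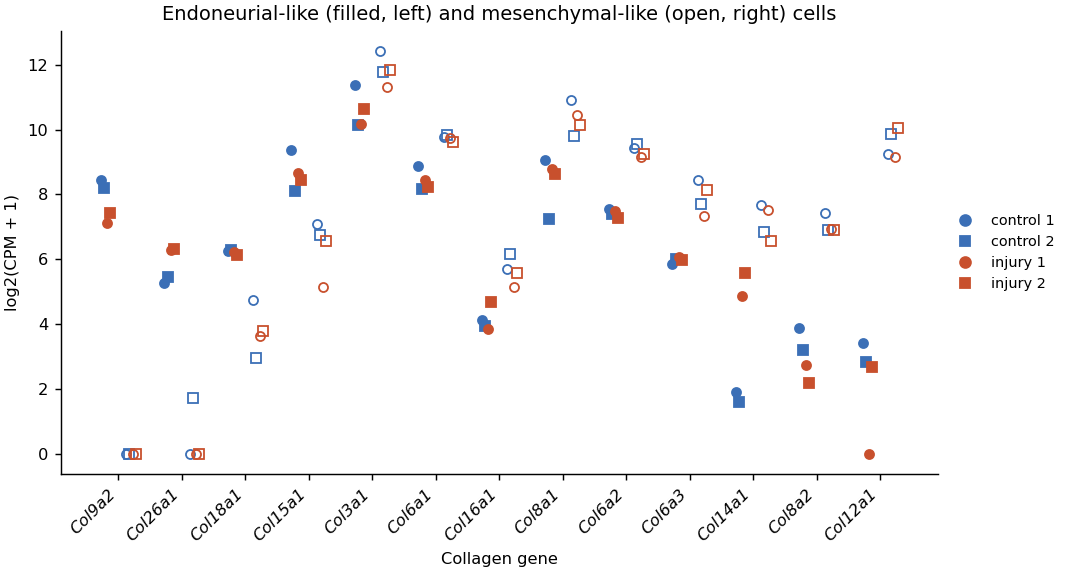
Levels (log2 of CPM + 1) of the 13 collagens called between endoneurial-like cells (filled symbols) and mesenchymal-like cells (open symbols), 1 symbol per library, with circles for libraries numbered 1, squares for those numbered 2, and a colour for each condition. Col9a2 is at 0 in the 4 mesenchymal-like libraries, and Col12a1 is at 0 to 9.68 CPM in endoneurial-like libraries.

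Basement membrane collagens were led by vascular cells. Col4a1 and Col4a2, the chains of the common type IV network, were highest in pericyte-like cells, the mural cells of capillaries, which reached 10 cells in the libraries numbered 1 only. Col4a1 was at 214 CPM in control library 1 and 182 CPM in injury library 1, and Col4a2 at 133 CPM in control library 1 and 232 CPM in injury library 1. Both values lay above all 4 endothelial-like libraries, where Col4a1 was at 125 and 106 CPM in control and 76.8 and 90.7 CPM after injury. Col4a2 was at 119.9 and 105 CPM in control and 67.7 and 90.7 CPM after injury in endothelial-like cells. Col4a1 (log2 2.60, SE 0.36, adjusted p = 2.4e-07) and Col4a2 (log2 2.92, SE 0.35, adjusted p = 1.6e-08) were called higher by edgeR in endothelial-like cells, and also in Schwann-like and smooth muscle-like cells.

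The 2 genes lie head to head on chromosome 8, Col4a1 from 11198423 to 11312826 on the minus strand and Col4a2 from 11312805 to 11449287 on the plus strand (GENCODE vM21, GRCm38), with a 22 bp overlap. The ratio of Col4a1 to Col4a2 UMIs in endothelial-like cells was 1.04 and 1.01 in control and 1.13 and 1.00 after injury. In fibroblast-like cells it was 1.49 and 1.25 in control and 1.23 and 1.26 after injury. Pooled over libraries, the Col4a1 and Col4a2 UMIs were 222 and 104 in SGC-like and 15 and 5 in non-myelinating glia-like cells. They were 43 and 32 in Schwann-like, 77 and 75 in pericyte-like and 84 and 64 in smooth muscle-like cells. Over 11 types the 2 genes' mean levels had a Pearson r of 0.96, a description of types that share libraries. The neighbours Col6a1 and Col6a2, 85161 bp apart on chromosome 10, had r = 0.86, and Col3a1 and Col5a2, 24614 bp apart on chromosome 1, had r = 0.85. Col6a1 and Col18a1, 326009 bp apart, had r = 0.73. Pairs that are not neighbours were not scored, so a link between distance and shared levels was not tested. The sources used here do not state how overlapping genes on opposite strands were counted, which applies to Col4a1 and Col4a2 and to Col5a1, Col12a1, Col14a1, Col15a1 and Col18a1, each of which overlaps an annotated gene on the other strand.

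Col18a1 was highest in pericyte-like cells too, at 92.6 CPM in control library 1 and 161 CPM in injury library 1, and was called higher in endothelial-like cells by edgeR (log2 3.19, SE 0.35, adjusted p = 1.9e-09). Col13a1, a transmembrane collagen, had 198 UMIs and was picked after its values were seen. It was at 78.4 and 97.2 CPM in control and 70.0 and 84.6 CPM after injury in endothelial-like cells, with no overlap with any other type, 15.2 times the level of pericyte-like cells, at 5.42 ± 0.526 CPM (SD, n = 2). Within endothelial-like cells the injury libraries were below the control libraries for Col4a1 and Col4a2, and above them for Col18a1 (64.6 and 39.1 CPM in control and 74.5 and 78.6 CPM after injury), but none of these passed the injury test in edgeR (log2 -0.35, -0.39 and 0.77, adjusted p = 0.999 for each). For Col13a1 the conditions overlapped. The type IV chains of specialised basement membranes were sparse: Col4a3 had 28 UMIs, Col4a4 100, Col4a5 98 and Col4a6 4. Smooth muscle-like cells had the highest Col4a5, at 23.6 ± 8.13 CPM (SD, n = 4), and edgeR called Col6a1, Col6a2, Col6a3 and Col18a1 higher in these cells besides the main type IV pair. Col6a3 lost this call without control library 1 (adjusted p = 0.0871) and without injury library 1 (adjusted p = 0.0766) by edgeR, and by DESeq2 Col6a3 (log2 1.76) and Col4a1 (1.95) were under the fold limit.

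In SGC-like cells edgeR called Col28a1, Col23a1 and Col27a1 higher, which were not called in fibroblast-like cells, and Col5a3, Col11a1, Col9a2, Col16a1, Col5a2, Col6a3 and Col8a1, which were called in fibroblast-like cells too. Col28a1, a beaded-filament-like collagen known mainly from peripheral nerve, was at 133 and 79.5 CPM in control and 73.0 and 71.1 CPM after injury in SGC-like cells. Control library 1, with 67 SGC-like cells, was the highest, and the other 3 libraries lay close together. A share of 25.9% of SGC-like cells had a Col28a1 UMI, against 0 of 110 neutrophil-like cells, at median depths of 3883 and 4392.5 UMIs. Non-myelinating glia-like cells, with 17 and 44 cells in the libraries numbered 1, had a level of 143 CPM in control library 1 and 88.7 CPM in injury library 1, which overlapped SGC-like cells.

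The fibril-forming chains Col5a3 and Col27a1 and the FACIT chain Col16a1 were also highest in the non-myelinating glia-like cells. Col27a1 was at 143 CPM in control library 1 and 217 CPM in injury library 1, 3.14 times the SGC-like mean. Col16a1 was at 108 CPM in control library 1 and 167 CPM in injury library 1, above every library of the other types. Col5a3 was at 179 CPM in control library 1 and 39.4 CPM in injury library 1, a spread that overlapped the adventitial-like level. Col23a1, a transmembrane collagen, was the 1 well counted member highest in Schwann-like cells, at 48.6 and 78.2 CPM in control and 53.0 and 136 CPM after injury. These libraries varied widely but stayed above those of SGC-like cells, which held 34.2 ± 7.73 CPM (SD, n = 4). Other members called in Schwann-like cells were Col28a1, Col5a1, Col5a3, Col1a2, Col4a1, Col4a2 and Col14a1, of which Col14a1 lost its call in 3 of the 4 fits that left out 1 library (all but the fit without injury library 2), Col5a1 without control library 2 (adjusted p = 0.0878) and Col4a2 without injury library 2 (log2 1.99). The adjusted p of Col14a1 in those 3 fits, all by edgeR, lay between 0.0886 and 0.162. By edgeR, Col14a1 also lost its call with 1 marker more (adjusted p = 0.0584) and with no library block (adjusted p = 0.100). With no filter on low counts it was at log2 1.97. Over the 4 libraries, Schwann-like cells held only 8 UMIs of Col5a1, 16 each of Col5a3 and Col14a1, and 22 of Col28a1. In SGC-like cells, Col6a3 lost its call without injury library 1 (adjusted p = 0.112) and Col8a1 without control library 2 or injury library 1 (log2 1.93 and 1.76), again by edgeR. With no library block, Col8a1 lost it there too (log2 1.94). By DESeq2, Col4a1 (log2 1.82), Col4a2 (1.81) and Col14a1 (1.55) in Schwann-like cells were under the fold limit. Col6a3 (1.13) and Col8a1 (1.42) in SGC-like cells were under it too. With each barcode given to the type with most of its markers, Col1a2 (1.53), Col5a1 (1.61) and Col14a1 (1.30) in Schwann-like cells were under it. So were Col5a2 (1.00), Col6a3 (1.17) and Col8a1 (0.748) in SGC-like cells.

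The 2 chains of type I collagen, which are wound together in the usual protein, were not counted in 1 proportion in all cell types. In fibroblast-like cells the ratio of Col1a1 to Col1a2 UMIs was 1.37 and 0.767 in control and 0.889 and 0.757 after injury. In SGC-like cells it was 0.0541 and 0.0513 in control and 0.0485 and 0.0782 after injury. Schwann-like cells gave 0.0698 and 0.267 in control and 0.243 and 0.281 after injury. Every SGC-like and Schwann-like library was below every fibroblast-like library, by a mean log2 difference within libraries of -4.01 ± 0.58 for SGC-like and of -2.28 ± 1.36 for Schwann-like cells (SD, n = 4). This comparison was not planned, and all 4 libraries were lower for both types. The exact two-sided sign-flip permutation test could then only give p = 0.125, the smallest that 4 libraries allow. It is a description. A low ratio was not particular to these glia, nor was it seen in all glia. Smooth muscle-like cells gave 0 and 0.167 in control and 0.24 and 0.552 after injury, with 0 to 16 Col1a1 UMIs per library and also below every fibroblast-like library. Macrophage-like cells, with 3 to 29 Col1a1 UMIs per library, gave 0.8 and 0.6 in control and 0.368 and 0.537 after injury. Non-myelinating glia-like cells gave 1.0 in control library 1 (13 UMIs of each chain) and 0.295 in injury library 1 (18 and 61 UMIs), of which the first lay within the fibroblast-like range. As 3′ UMIs of 2 genes need not be captured alike, a ratio of 1 does not mark equal amounts of chains, and the comparison is between types for the same pair of genes.

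Col1a2 UMIs occurred in 40.9% of SGC-like cells and in 5.45% of neutrophil-like cells, and Col1a1 in 3.30% and 2.73%. With every cell thinned to 1000 UMIs, the shares were 14.0% and 1.11% for Col1a2 and 0.949% and 0.648% for Col1a1, so Col1a1 in SGC-like cells was near the pooled level of cells that should lack it. That neutrophil-like level rested on 3 Col1a1 UMIs, all in injury library 2. SGC-like cells had 2 and 10 Col1a1 UMIs in control and 19 and 14 after injury. Against its pooled level in fibroblast-like cells, SGC-like cells held 6.00% of Col1a2, 0.365% of Col1a1, 0.0893% of the fibroblast proteoglycan gene Dcn and 1.73% of Lum, and 1 UMI of Pdgfra. Schwann-like cells held 16.9% of Col1a2, 4.20% of Col1a1 and 0.133% of Dcn, and no UMI of Pdgfra. The summed level of all 8 fibroblast markers was 853 to 1595 CPM in SGC-like, 1623 to 3039.7 CPM in Schwann-like and 38789 to 76739 CPM in fibroblast-like cells. In SGC-like control library 1 the sum was 1585 CPM, with a UMI in 4 of the 8 markers. Dcn was at 60.8 and Lum at 16.6 CPM there, so most of that sum came from other markers. The same held in the other SGC-like libraries, with Dcn at 16.5 to 50.4 and Lum at 70.3 to 162 CPM. It also held in the Schwann-like libraries, with Dcn at 0 to 109 and Lum at 8.69 to 24.3 CPM. These markers also served to assign the cells, and cells with many of them were left out of the glia.

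**Figure D4:**
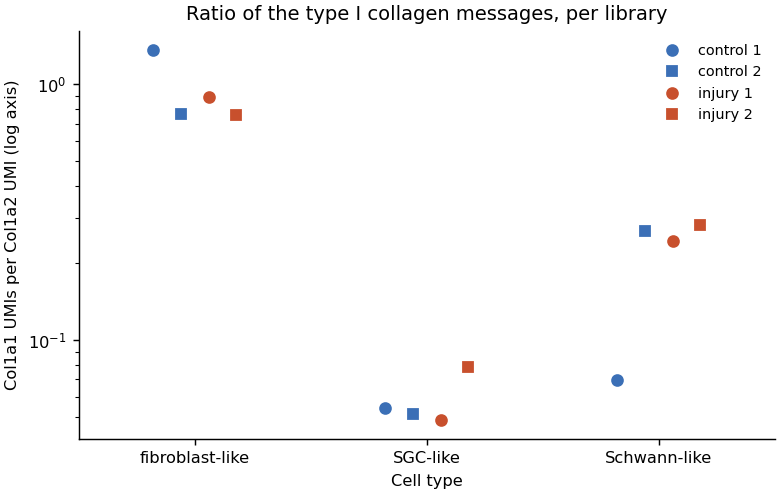
Ratio of Col1a1 to Col1a2 UMIs (log axis) in fibroblast-like, SGC-like and Schwann-like cells, 1 point per library, with a colour for each condition and a symbol for each library number. SGC-like libraries lie between 0.0485 and 0.0782 and fibroblast-like libraries between 0.757 and 1.37.

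Macrophage-like cells had 1 called collagen, Col14a1. It was at 10.7 and 19.2 CPM in control and 27.1 and 27.0 CPM after injury in macrophage-like cells, the injury libraries being above the control libraries without passing the injury test (edgeR, log2 0.91, SE 0.41, adjusted p = 0.594). The pooled level was 28.7% of that in fibroblast-like cells, while Col1a1 was at 0.388% and Dcn at 0.325% of theirs. Pooled Col14a1 was at 23.4 CPM, below the Schwann-like level (30.8 CPM) and above the SGC-like (18.6 CPM) and smooth muscle-like (13.4 CPM) levels. Neutrophil-like cells held 0 Col14a1 UMIs and endothelial-like cells 2, which lowered the mean of the other types. Against the mean of the other types (edgeR, log2 2.01, SE 0.54, adjusted p = 0.00236) Col14a1 was just over the fold limit, fell under it without control library 2 (log2 1.95) and by DESeq2 (log2 1.10), and without injury library 1 it was at log2 1.49 (adjusted p = 0.077).

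The remaining members were sparsely counted. With from 20 to fewer than 200 UMIs there were, besides those given above, Col9a3 (127 UMIs), Col25a1 (41), Col19a1 (27) and Col11a2 (23). With 1 to 19 UMIs there were Col9a1 (10), Col17a1, a component of hemidesmosomes (7), Col20a1 (7), Col7a1, the anchoring fibril chain of skin (6), Col22a1 (6), Col24a1 (6), Col4a6 (4), Col6a6 (3) and Col6a4 (1). Of these, Col9a3 was at 37.6 ± 2.53 CPM (SD, n = 2) in non-myelinating glia-like cells, from 5 UMIs, and at 16.1 ± 11.4 CPM (SD, n = 4) in SGC-like cells, where its change after injury did not pass the test (edgeR, log2 -0.26, SE 0.58, adjusted p = 1). Col10a1 had 16 UMIs when all barcodes were counted, none of them in a filtered cell, and it overlaps Nt5dc1 on the other strand.

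To ask whether collagens changed 3 days after the crush, UMIs summed per library were compared within each type, 2 control against 2 injury libraries. Fibroblast-like cells had a collagen share of 1.24% ± 0.0709 in control and 0.927% ± 0.178 after injury (SD, n = 2 each). Both injury libraries were below both control libraries, a difference of -0.312 percentage points (two-sided exact permutation test over libraries, p = 0.3333, which 2 against 2 cannot go below). In endoneurial-like cells the means were 0.924% and 0.735% and in mesenchymal-like cells 1.71% and 1.39%, with libraries overlapping in both. Without control library 1 the endoneurial-like difference was 0.0178 points, against -0.189 with it. In smooth muscle-like cells, injury library 2, with 12 such cells, stood apart at 0.259%, while the other 3 libraries held at most 0.0643%.

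With all 4 libraries, the filter on low counts and no replicate block, no collagen passed an adjusted p under 0.05 in any of the 9 types, by edgeR or by DESeq2. The members tested, and those at an unadjusted p under 0.05 by edgeR, numbered 21 and 3 in endoneurial-like, 25 and 2 in fibroblast-like, 20 and 1 in SGC-like, 15 and 0 in mesenchymal-like, 6 and 0 in smooth muscle-like, and 4 and 0 in each of endothelial-like, macrophage-like and Schwann-like cells, and none could be tested in neutrophil-like cells. Of all genes tested, 0.237% were called in endoneurial-like cells, 0.0231% in fibroblast-like cells, 0.0144% in those called macrophage-like and 0% of genes in the other 6 types. Over the collagens tested, 7 were higher and 18 lower after injury in fibroblast-like cells without passing the test, with a median log2 change of -0.18 (all genes -0.00). The median was -0.01 in endoneurial-like cells (all genes -0.01), -0.26 in mesenchymal-like cells (all genes 0.00) and 0.11 in SGC-like cells (all genes 0.01). The difference between the changes in fibroblast-like and endothelial-like cells, tested as an interaction in edgeR, passed for none of 25 collagens (2 at an unadjusted p under 0.05; DESeq2 was not run for it) and for 0.0540% of all 9258 genes.

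In endoneurial-like cells 3 members stood nearest to the threshold. Col14a1 had 2 and 1 UMIs in control and 25 and 26 UMIs after injury, which is 2.77 and 2.04 CPM in control and 28.0 and 46.2 CPM after injury. The conditions did not overlap (edgeR, log2 3.84, SE 0.60, adjusted p = 0.0571). Without control library 1 the change was 4.11 (adjusted p = 0.00118) and without control library 2 it was 3.70 (adjusted p = 1.2e-04) by edgeR, both past the threshold, while without an injury library it stayed short of it, at 4.14 (adjusted p = 0.427) and 3.55 (adjusted p = 0.297). In all fibroblast-like cells Col14a1 changed by log2 0.08, with overlapping libraries. In endoneurial-like cells the 8 adventitial markers summed to 217 and 214 CPM in control and 181 and 183 CPM after injury. The 10 mesenchymal markers, of which 5 or 6 had a UMI, moved with the condition, at 31.8 and 71.4 CPM in control and 129 and 284 CPM after injury. Their part in the Col14a1 values was not tested.

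Col9a2 in endoneurial-like cells was lower in both injury libraries than in both control libraries (values above), without passing the test (edgeR, log2 -1.001, SE 0.22, adjusted p = 0.304). Without control library 2 its change was -1.11 (adjusted p = 0.0145) by edgeR, and in all fibroblast-like cells it was -1.31 (adjusted p = 0.0299) without that library and -0.87 (adjusted p = 1) with it. Col26a1 was higher in both injury libraries than in both control libraries (edgeR, log2 1.02, SE 0.26, adjusted p = 0.481), and in fibroblast-like cells the change was 1.13 (adjusted p = 1). For both genes the 2 conditions were separated in the 4 libraries while the adjusted p remained above 0.05. Col8a1 depended on the library left out: it was 1.59 (adjusted p = 0.00279) without control library 1 and -0.27 (adjusted p = 0.92) without control library 2 by edgeR.

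**Figure D5:**
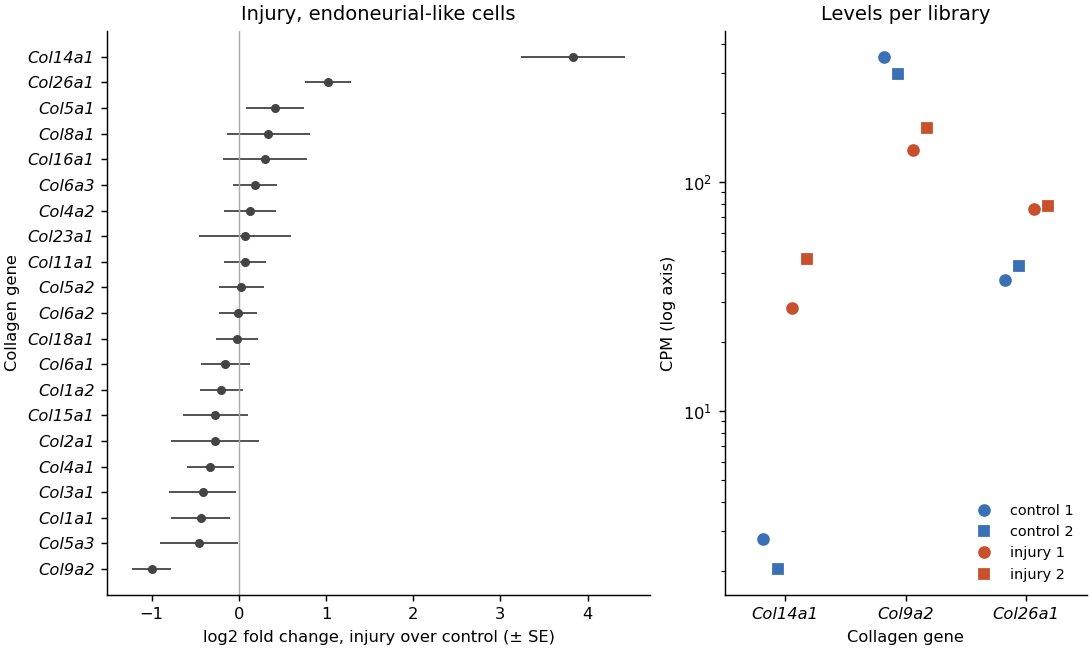
Left, log2 fold change from control to injury with its SE for the 21 collagens tested in endoneurial-like cells; right, levels of Col14a1, Col9a2 and Col26a1 (CPM, log axis) in the same cells, 1 point per library. Col14a1 goes from 2.04 and 2.77 CPM to 28.0 and 46.2 CPM, and Col9a2 is lower and Col26a1 higher in the injury libraries. None of the 3 passes the adjusted threshold in the fit drawn, with the filter on low counts and no replicate block.

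Outside the fibroblasts, Col3a1 and Col1a2 gave values that turned on single libraries. In smooth muscle-like cells Col3a1 stood at 2.89 and 97.4 CPM in control and 17.9 and 772 CPM after injury, with injury library 2 far above the other 3. Without it the edgeR change was -0.74 (adjusted p = 1) instead of 3.22 (adjusted p = 1), while without injury library 1 it was 4.56 (adjusted p = 5.1e-15) and without control library 2 6.53 (adjusted p = 2.3e-08). Col1a2 in the same cells had an edgeR change of 1.92 (adjusted p = 0.00429) without injury library 1 and -0.94 (adjusted p = 1) without injury library 2. In macrophage-like cells Col1a2 stood at 5.35 and 19.2 CPM in control and 7.47 and 53.9 CPM after injury, again highest in injury library 2, and its edgeR change was -0.42 (adjusted p = 0.996) without that library and 2.32 (adjusted p = 0.0105) without injury library 1. The summed fibroblast markers of smooth muscle-like cells were 1215 and 857 CPM in control and 991 and 1186 CPM after injury. Those of macrophage-like cells were 563 and 450 CPM in control and 421 and 611 CPM after injury. Among these markers, Dcn was at 92.4 and 39.0 CPM in control and 23.0 and 53.9 CPM after injury in smooth muscle-like cells. Lum was there at 20.2 and 0 CPM in control and 7.67 and 35.9 CPM after injury. Most of each smooth muscle-like sum therefore came from other markers. The part of these markers in the collagen values was not tested.

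Genes that fold, trim, crosslink, link or bind collagen formed a list of 41, of which 31 could be tested across types. The filter on low counts was the same and kept genes well counted in 1 type alone. In fibroblast-like cells 17 of the 31 were called higher by edgeR, against 10.8% of all genes (median log2 2.88, all genes 0.15). They included the collagen chaperone Serpinh1 (log2 3.79), the procollagen processing genes Pcolce (6.08) and Adamts2 (7.41), and the crosslinking enzymes Lox (5.62) and Loxl1 (6.42). Such fitted values depend on the prior count where the other cells hold few or no UMIs. In SGC-like cells 7 were called higher (9.50% of all genes), among them the collagen prolyl hydroxylase subunit P4ha3 (6.18), the basement membrane linker Nid1 (2.28) and the collagen receptor genes Ddr1 (3.01), Gpr56 (4.13) and Gpr126 (3.82). Macrophage-like cells were higher in 1 (10.9%), the inhibitory collagen receptor Lair1, and lower in 4. Smooth muscle-like cells were higher in 8 (10.0%). Schwann-like cells were higher in 3 (8.29%) and endothelial-like cells in 2 (10.1%), which is near or below the share over all genes. Schwann-like cells were lower in Lair1. In neutrophil-like cells 1 was higher (8.18%) and 11 were lower.

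Between the fibroblast types, 25 of the 41 could be tested. Of these, 1 was higher in endoneurial-like cells, below the share of 9.62% over all genes, and 5 were higher in mesenchymal-like cells, against 7.57%. Nid1 was higher in endoneurial-like cells (log2 1.52), whereas Lox (-5.95), the collagen lysyl hydroxylase Plod2 (-3.51), Loxl1 (-2.79), P4ha2 (-2.02) and the collagen uptake receptor Mrc2 (-1.69) were higher in mesenchymal-like cells, all as endoneurial-like minus mesenchymal-like differences called by edgeR. After injury neither edgeR nor DESeq2 called any of the list in any of the 9 types. Of the 28 members tested in fibroblast-like and the 28 in SGC-like cells, 0 had an unadjusted p under 0.05 in edgeR, as had 0 in the other types except for 2 of 12 in macrophage-like cells.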

How the data were processed

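The authors deposited 4 matrices of raw UMI counts per gene and barcode (10x Genomics 3′ libraries). The submitters' processing notes name Cell Ranger, Partek and mm10. The 2 libraries of a condition were not pooled, but each batch held cells pooled from several mice, as the study states. The counts hold each captured molecule once, so capture at the 3′ end and free RNA in droplets bear on the levels. The limits of the study's methods were applied to cells (UMIs from 600 to 15000, genes from 500 to 4000, mitochondrial UMIs under 10%). Each was assigned a type by at least 3 of its markers, and barcodes whose second-best type scored over 0.5 times the best were left out. No doublet caller was run. UMIs were summed per library and type (at least 10 cells) and tested over all genes with edgeR 4.0.16 (quasi-likelihood, TMM) in R 4.3.3, with DESeq2 1.42.0 as an alternative, after testing on simulated data. Adjusted p-values are Benjamini-Hochberg over all genes tested. Libraries of 4293865 to 9139674 filtered UMIs limit the precision of rare genes, and intervals and floors cover counting error only. The members and lists were chosen with earlier results of these data known. Values per library are given for collagens with at least 200 UMIs, in the type where each is highest. Gene positions are from GENCODE vM21, with older symbols as in the files (Gpr56 and Gpr126). Alternatives are listed in the closing section. The groups follow the labels. The p-values of the injury tests within a type measure the spread between 2 libraries per condition. Those of the comparisons across types and between fibroblast types measure the spread over 4 libraries of both conditions, with library as a block. The sign-flip test used the differences within these 4 libraries. The 2 libraries of a condition differed by more than counting noise.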

Additional observations from a re-analysis of the deposited data

How the results depend on the processing

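Alternatives were other gates (1 marker more, or every barcode given to the type with most of its markers), no limits on cells, no filter on low counts, library totals without TMM, DESeq2, no library block, and leaving out each library. A refit is 1 gene in 1 comparison under 1 alternative, and refits of the same gene share data. Only calls of the main fit were followed across types (47) and between fibroblast types (13). For injury, where the main fit called none, 9 gene and type pairs were followed. Of 517 refits across types, 483 kept their direction and side of the threshold and 34 lost the call. Of 104 between fibroblast types, 100 kept it and 4 lost it. For injury, 82 of 99 kept it, 13 passed the threshold only under the alternative and 4 reversed. The number of collagens called higher in macrophage-like cells was 0 with DESeq2, with the most-marker gate, without TMM and with no library block, and 0 to 1 without 1 library. In Schwann-like cells it was 5 with the most-marker gate. After injury, 1 collagen was called higher in endoneurial-like and 1 in smooth muscle-like cells with no filter on low counts. With 1 library left out, the counts ran from 0 to 2 higher and 0 to 1 lower in endoneurial-like, 0 to 1 lower in fibroblast-like, 0 to 1 higher in macrophage-like and 0 to 3 higher in smooth muscle-like cells. Where that left 1 library in a condition, it was assumed to vary like the others. The changes (log2) without 1 library ran from -0.27 to 1.59 for Col8a1 in endoneurial-like cells, from -0.74 to 6.53 for Col3a1 and from -0.94 to 1.92 for Col1a2 in smooth muscle-like cells, and from -0.42 to 2.32 for Col1a2 in macrophage-like cells. The cause was not tested. A number 2 is given to 1 library per condition, with no statement that it marks a pair. Same-numbered libraries deviated together (correlations of their deviations over genes from 0.240 to 0.615 in 9 types), and a fit with the replicate number as a block called 1 collagen higher (Col14a1, adjusted p = 0.0034) and 1 lower (Col9a2, adjusted p = 0.0425) in endoneurial-like cells by edgeR. The Col1a1 to Col1a2 comparison was not planned, and its alternatives were added after seeing the data. The most-marker gate gave differences (log2) of -3.52 for SGC-like and -2.07 for Schwann-like cells, and leaving out 1 library gave -4.25 to -3.79 and -2.56 to -1.61. With 2 libraries per condition and 10 to 600 cells per type and library, a collagen without a call may still have changed. Col14a1 in endoneurial-like cells, at log2 3.84, was not called in the main fit (edgeR, adjusted p = 0.0571).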
